A study of Mus musculus with 8 samples.

Results

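The genes described here are 32 mouse genes for poly(A) binding, 3′ end cleavage and polyadenylation, and nuclear RNA decay, the processes in which PABPN1 acts. They were listed by name for their roles, with earlier results of these data known. All 32 were found among the 19857 genes of the count table. By role they comprise 4 poly(A) binding proteins, 19 cleavage and polyadenylation factors, 8 genes of nuclear RNA decay, and the mRNA export receptor Nxf1. The 8 bulk libraries came from the tongues of female mice aged 12 months, 4 wild type (WT) and 4 PABPN1 A17/+, with 1 library per mouse. A17/+ mice carry 1 allele that codes for PABPN1 with an expanded alanine stretch, the kind of change that causes oculopharyngeal muscular dystrophy in people, beside 1 normal allele. No treatment is given for either group, and the strain is not given in the sources used here. RNA came from cryosections through the middle of the tongue, so each library mixed muscle, epithelium and other cells.

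PABPN1 coats the growing poly(A) tail in the nucleus and helps poly(A) polymerase to extend it. Cleavage of the nascent transcript is directed by CPSF, which reads the AAUAAA hexamer, by CstF, which binds downstream of the cut, and by cleavage factors I and II. Many nuclear RNAs that are not exported are degraded by the exosome. The adaptors NEXT (ZCCHC8 and RBM7) and the PABPN1-linked connection through ZFC3H1 deliver different substrates to it.

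The coding start of Pabpn1 is shown because the A17 allele differs from WT in its alanine stretch. The reference gene lies at chr14:54892500-54898169 (mm10, plus strand). Its first 20 codons are in exon 1 of the annotated transcript, at chr14:54894156-54894215, and the 10 alanine codons in a row, 7 GCG and 3 GCA, are in capitals.

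Pabpn1: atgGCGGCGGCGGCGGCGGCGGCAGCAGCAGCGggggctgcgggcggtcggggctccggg

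The libraries count 3′ ends, so they do not read this stretch and the counts do not check the genotype.

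Next are the annotated 3′ ends of members on which the results below turn. The sequence is shown because CPSF reads the hexamer and because the counted molecules are primed from the tail that follows it. The first hexamer searched was AATAAA and the second, where that was missing, ATTAAA, on the transcript strand within the last 40 bases of the longest coding transcript. Capitals mark the hexamer within 30 bases of the final exon, which are 3′ UTR. Positions are mm10, at chr15:36595662-36595691 (minus strand) for Pabpc1, chr4:123298888-123298917 (plus) for Pabpc4, chr5:123698300-123698329 (minus) for Zcchc8, chr10:115432737-115432766 (plus) for Zfc3h1, chr2:104665395-104665424 (plus) for Cstf3 and chr4:148582365-148582394 (plus) for Exosc10.

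Pabpc1: ttcttgctttAATAAAaattccttaaacag
Pabpc4: gcatatattaAATAAAtttactttcccttt
Zcchc8: gataattgtaAATAAAttcagatctcttaa
Zfc3h1: tttaatttatAATAAAgtttaacagtttaa
Cstf3: ctttgaaaggAATAAAaggacctcaaaaac
Exosc10: ttttaaaaccATTAAAatgtattcctacca

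Pabpc4 and Zcchc8, the members that passed the test below in opposite directions, both held AATAAA, with 22 and 20 annotated bases after it. Among all members 19 held AATAAA, 5 held ATTAAA and 8 held neither in that window. Of the 14825 genes of the table with an annotated coding 3′ end, 62.5% held AATAAA, 14.7% ATTAAA alone and 22.8% neither. The members' longest transcripts had a median length of 3894.5 nt, against 2909 nt over all genes, and their 3′ UTRs a median of 1178 nt against 1122 nt.

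Library totals ran from 205696 to 465014 UMIs (unique molecules) in WT and from 395061 to 485326 in A17/+. All 32 members together took only 455 to 884 counts in a library. Levels are given as CPM, a library's counts of the gene rescaled to a common total of counts in the genes tested with TMM factors, and 3 counts equalled 6.69 to 16.3 CPM depending on the library. Some cell type markers also moved with genotype. Endothelial markers summed to 222 to 257 CPM in WT and 279 to 311 in A17/+, Schwann cell markers to 27.1 to 64.6 and 110 to 150 CPM (4 genes), and erythrocyte globins to 6.69 to 22.6 and 62.4 to 1116 CPM. Of 8 skeletal muscle markers 4 were past the threshold as higher in A17/+, against 6.34% of all genes tested. Of 8 epithelial markers 2 were past it as lower, against 2.61%. The muscle and epithelial sums overlapped between the groups, as did the sums of macrophage and adipocyte markers. No endothelial (4 tested), Schwann cell (1 tested) or macrophage (1 tested) marker was past the threshold, and no adipocyte marker had enough counts. Of the 3 erythrocyte globins 1 was tested, and it was past the threshold as higher. Of 6 fibroblast markers 2 were past the threshold as higher. Their sum was 474 to 672 CPM in WT and 649, 1231, 1045 and 1169 CPM across A17/+ 1 to 4. A17/+ 1 was the lowest and A17/+ 2 the highest A17/+ library here, for the globins and for Pabpc4 below. Whether these are linked was not tested. Mitochondrial transcripts took 4.17% to 6.43% of counts in WT and 7.24% to 10.98% in A17/+, and genes with transcripts under 1000 nt took 3.95% to 6.03% and 5.82% to 7.95%. The WT 1 library held 922 counts of salivary gland genes, against at most 3 in the other WT libraries and 5 to 20 in A17/+. The part of these differences in the results below was not tested, beyond the fits without WT 1.

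The comparison of A17/+ with WT tongue asked whether carrying the A17 allele went with altered RNA levels of the machinery around PABPN1. Pabpc4, a cytoplasmic poly(A) binding protein, rose about 2.13-fold, and Zcchc8, the zinc knuckle scaffold of the NEXT adaptor, fell about 2.01-fold. No other member was past the threshold, an adjusted p under 0.05 by edgeR's quasi-likelihood test over the 5066 genes with enough counts. Of the 32 members 19 had enough counts and 13 did not, so the count is 1 higher, 1 lower and 17 not called. Over all genes tested 8.94% were called, 6.34% as higher and 2.61% as lower, and 2 of 19 is close to that background. Without adjustment 4 of the 19 (Pabpc4, Zcchc8, Cstf2 and Cstf3) had a p under 0.05, against 25.1% of all genes tested. Groups did not overlap for 1 of the 19, Zcchc8, against 14.6% of all genes tested (8.57% with A17/+ higher and 6.08% with A17/+ lower). In the fit on all 19857 genes with a count, which takes in all 32 members, the same 2 members were called, against a background of 4.3%.

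Among the poly(A) binding proteins, Pabpn1 itself was at a low level, with 15, 4, 6 and 6 counts across WT 1 to 4 and 9, 9, 5 and 11 across A17/+ 1 to 4. Those counts correspond to 33.4, 12.9, 20.3 and 32.5 CPM in WT and 20.1, 25.4, 14.1 and 31.4 CPM in A17/+. The groups overlapped throughout, at 24.8 ± 9.92 CPM in WT against 22.7 ± 7.37 CPM in A17/+ (SD, n = 4 each). The difference in mean log2(CPM + 1) was -0.08, with p = 0.857 in a two-sided exact permutation test over 70 assignments, whose smallest possible p is 0.0286. In the edgeR fit on all genes with a count, the 95% interval of the A17/+ to WT ratio ran from 0.479 to 1.602. Ratios within that interval remain compatible with these counts, so both a decrease and an increase of Pabpn1 RNA of that size remain possible. The annotated gene Gm20521, which has no row in the count table, overlaps exons of Pabpn1 on the same strand. Whether reads in the shared exons were left uncounted was not tested, so the low counts need not give the full level of Pabpn1 RNA.

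Pabpc4 lies at chr4:123262351-123298925 (mm10, plus strand). It was at 91.4, 54.9, 67.7 and 43.3 CPM across WT 1 to 4 and at 84.7, 209, 164 and 117 CPM across A17/+ 1 to 4, from 8 to 41 and 38 to 74 counts. The A17/+ libraries 2, 3 and 4 lay above every WT library, while A17/+ 1 lay just below WT 1, so the groups overlapped by that pair. Group levels were 64.3 ± 20.6 CPM in WT against 144 ± 54.4 CPM in A17/+ (SD, n = 4 each). The log2 fold change was 1.09 ± 0.30 (SE, 95% interval 0.46 to 1.73), with an edgeR adjusted p of 0.0301. The call ended under 8 of 19 alternatives, among them leaving out any 1 of WT 2, 3 and 4 or A17/+ 2, 3 and 4 (log2 fold change 0.85 to 1.15, adjusted p 0.0504 to 0.0940), and under limma-voom (1.00, adjusted p = 0.0858). Over all 19 the fold change stayed between 0.85 and 1.52 and the adjusted p between 0.0012 and 0.0940. In bulk tissue, more cells of a type that holds Pabpc4 RNA and more of that RNA per cell cannot be told apart.

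Pabpc1, the main cytoplasmic poly(A) binding protein, pointed the other way without passing the test. WT 1 to 4 were at 309.8, 352, 332 and 276 CPM and A17/+ 1 to 4 at 214, 381, 257 and 194 CPM. A17/+ 2 was the highest library of all and the other A17/+ libraries were the lowest, which gave 318 ± 32.5 CPM in WT against 262 ± 84.1 CPM in A17/+ (SD, n = 4 each). Its log2 fold change was -0.29 ± 0.21 (SE, edgeR adjusted p = 0.422). Pabpc1 has processed pseudogene copies in the genome, so the assignment of its 3′ reads is uncertain.

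The 2 cytoplasmic genes were also set against each other inside each library, a ratio that does not depend on scaling and that was chosen after the values were seen. Per 100 Pabpc1 counts there were 29.5, 15.6, 20.4 and 15.7 Pabpc4 counts across WT 1 to 4, and 39.6, 54.8, 63.7 and 60.3 across A17/+ 1 to 4. All A17/+ libraries were above all WT libraries, at 54.6 ± 10.7 against 20.3 ± 6.53 (SD, n = 4 each). The same ratio for Pabpn1 was 8.09 ± 3.84 in WT and 9.43 ± 4.78 in A17/+, with overlapping groups.

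Zc3h14, a nuclear zinc finger protein that binds poly(A), was at 37.9, 38.8, 13.5 and 21.7 CPM across WT 1 to 4. Across A17/+ 1 to 4 it was at 40.1, 36.7, 39.6 and 57.0 CPM. WT 3 and 4, with 4 counts each, were the low libraries, and the groups overlapped. Means were 28.0 ± 12.4 and 43.4 ± 9.23 CPM (SD, n = 4 each), with a log2 fold change of 0.55 ± 0.35 (SE, edgeR adjusted p = 0.338). Whether counting used strand is not given in the sources used here, and exons of other genes in the table overlap Zc3h14, Cpsf1, Cpsf2, Cpsf3, Fip1l1, Cpsf7, Pcf11, Exosc2, Exosc3, Exosc4 and Dis3 on the opposite strand. Reads of such a pair may not be told apart.

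**Figure D1:**
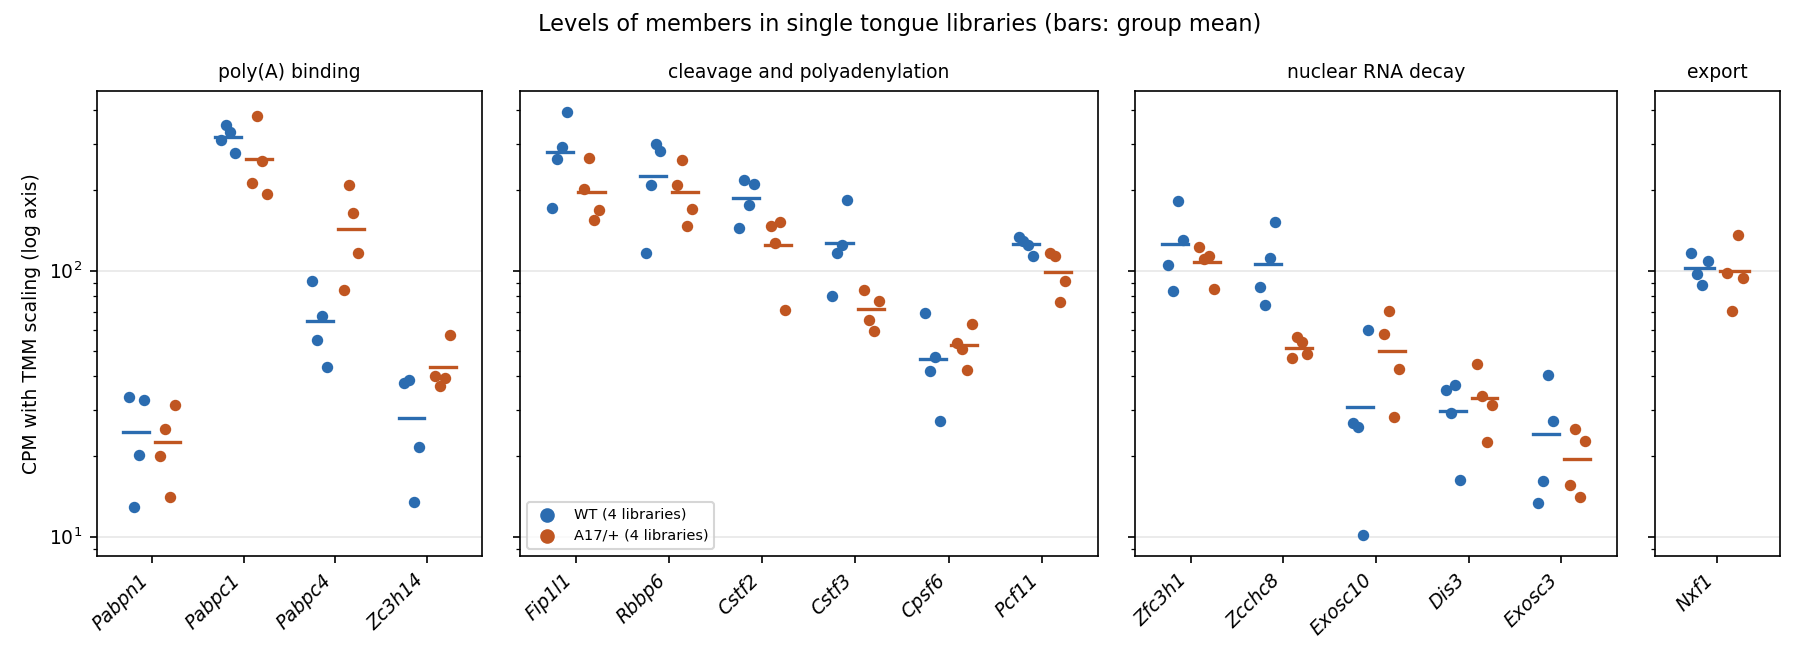
Level of 16 members in each library, as CPM with TMM scaling on a log axis, with 4 WT points in blue and 4 A17/+ points in orange per gene and bars at the group means. Zcchc8 is the gene whose 4 A17/+ points (46.8 to 56.5 CPM) all lie below its WT points (74.3 to 152 CPM), and in Pabpc4 A17/+ 1 lies below WT 1.

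Of the 19 cleavage and polyadenylation factors, 11 had enough counts and none of those was called. By edgeR 2 of the 11 had an unadjusted p under 0.05, both subunits of CstF, against 25.1% of all genes tested. DESeq2 also called none of the class. In the fit on all genes with a count, which covers all 19, 11 log2 fold changes were positive and 8 negative, from -0.81 (Cstf3) to 1.197 (Cstf1). Over all 19857 genes of that fit 11083 were positive and 8774 negative.

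Neither poly(A) polymerase showed a difference beyond the spread between mice. Papola, the main nuclear enzyme, was at 74.9 ± 22.0 CPM in WT and 85.1 ± 10.7 in A17/+ (edgeR adjusted p = 0.786), and Papolg was at 15.9 ± 1.78 and 11.7 ± 5.96 CPM, below the filter. Summed, they came to 90.8 ± 22.2 CPM in WT against 96.8 ± 8.77 CPM in A17/+ (SD, n = 4 each).

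Within CPSF, the complex that finds the hexamer and cuts, Fip1l1 had the most counts. Fip1l1 tethers poly(A) polymerase to the complex. It was at 172, 262, 291 and 396 CPM across WT 1 to 4 and at 203, 265, 155 and 168 CPM across A17/+ 1 to 4. WT 4 was the highest library, WT 1 and 2 lay among the A17/+ values, and the log2 fold change of -0.47 ± 0.24 did not pass (SE, edgeR adjusted p = 0.241). Without WT 1 Fip1l1 was past the threshold, at -0.70 (edgeR adjusted p = 0.0380), and over 19 alternatives its adjusted p ran from 0.0380 to 0.478. The endonuclease Cpsf3 was at 87.7 ± 5.26 CPM in WT against 94.6 ± 17.3 CPM in A17/+, with a log2 fold change of 0.12. Cpsf1, the scaffold, was at 32.2 ± 2.16 and 33.7 ± 10.9 CPM. Wdr33, which contacts the hexamer, was at 31.6 ± 11.01 and 39.5 ± 11.5 CPM. None of these 3 had an edgeR adjusted p below 0.677. Cpsf2 (9.57 ± 4.23 and 15.8 ± 7.06 CPM) and Cpsf4 (9.83 ± 7.01 and 13.3 ± 9.63 CPM), the latter the zinc finger subunit that binds the hexamer with Wdr33, were below the filter. The 6 CPSF genes together came to 451 ± 96.7 CPM in WT against 395 ± 54.5 CPM in A17/+ (SD, n = 4 each), with overlapping libraries. Sympk, the scaffold that joins CPSF to CstF, was at 55.4 ± 18.4 and 45.3 ± 16.1 CPM (edgeR adjusted p = 0.724).

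Both CstF subunits with enough counts had lower means in A17/+ without passing the test. Cstf2, which binds the downstream GU-rich element, was at 145, 219.8, 176 and 211 CPM across WT 1 to 4 and 147, 127, 153 and 71.3 CPM across A17/+ 1 to 4. A17/+ 4 was the lowest library and WT 1 lay inside the A17/+ values. Its log2 fold change was -0.58 ± 0.25 (SE), with an edgeR p of 0.0324 before adjustment and 0.155 after. Cstf2t is a close, intronless relative of Cstf2, so reads from the pair could be split between them. Cstf2t was at 19.3 ± 3.17 CPM in WT against 20.2 ± 6.56 CPM in A17/+, below the filter.

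Cstf3, the CstF subunit that bridges the others, was picked out after its values were seen. It was at 80.2, 116, 125 and 184 CPM across WT 1 to 4 and at 84.7, 65.0, 59.3 and 77.0 CPM across A17/+ 1 to 4. The groups overlapped because A17/+ 1 lay above WT 1, and the other 3 WT libraries lay above every A17/+ library. Means were 127 ± 43.1 and 71.5 ± 11.5 CPM (SD, n = 4 each), with a log2 fold change of -0.77 ± 0.26 (SE) and an edgeR adjusted p of 0.0744. It was past the threshold in 6 of 19 alternatives, among them those without WT 1 (-0.99, adjusted p = 0.0185), without A17/+ 1 (-0.90, adjusted p = 0.0445) and with library totals as the only scaling (-0.88, adjusted p = 0.0358). Over all 19 its fold change ran from -1.04 to -0.60 and its adjusted p from 0.0108 to 0.200. The remaining subunit, Cstf1, had 8 counts over the WT libraries and 24 over A17/+, a ratio of 2.46 with a counting interval of 1.07 to 6.34 that leaves out the spread between mice. Its edgeR adjusted p in the fit on all genes was 0.430. The 4 CstF genes summed to 254, 359, 318 and 433 CPM across WT 1 to 4 and 268, 217, 246 and 199.5 CPM across A17/+ 1 to 4, so that A17/+ 1 lay above WT 1 there too.

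Cleavage factor I binds UGUA upstream of the cut and is known for steering the choice between near and distal poly(A) sites. Nudt21, its RNA-binding subunit, had 4, 2, 3 and 0 counts across WT 1 to 4 and 5, 3, 4 and 4 across A17/+ 1 to 4. That is too few for the filter, and the interval of its log2 fold change, from -0.90 to 1.88, spans both directions. Cpsf6 was at 69.1, 42.0, 47.4 and 27.1 CPM across WT 1 to 4 and 53.5, 50.8, 42.4 and 62.7 CPM across A17/+ 1 to 4. The A17/+ values lay inside the WT range, and the log2 fold change was 0.09 (edgeR adjusted p = 0.879). Cpsf7 was at 14.2 ± 10.1 and 15.2 ± 2.71 CPM (SD, n = 4 each).

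Cleavage factor II links cleavage to transcription termination. Its subunit Pcf11, which binds the tail of RNA polymerase II, was at 134, 129, 125 and 114 CPM across WT 1 to 4 and 116, 113, 76.3 and 91.2 CPM across A17/+ 1 to 4. A17/+ 1 lay just above WT 4, and the log2 fold change of -0.34 did not pass (edgeR adjusted p = 0.342). Clp1, the RNA kinase of the factor, had 4 counts over the WT libraries and 5 over A17/+ and was at 0 in 3 libraries. Summed, Pcf11 and Clp1 came to 134, 133, 129 and 125 CPM across WT 1 to 4 and 123, 113, 76.3 and 96.9 CPM across A17/+ 1 to 4. All A17/+ sums lay below all WT sums, A17/+ 1 only just. Nearly all of the counts were of Pcf11, but Pcf11 alone overlapped between the groups. The sums were apart only with Clp1 added, at 2 counts (10.8 CPM) in WT 4 and 3 counts (6.69 CPM) in A17/+ 1. How often sums of other genes are apart was not tested. Rbbp6, a ubiquitin ligase needed for activating the cleavage machinery, was at 116, 210.1, 298 and 282 CPM across WT 1 to 4. Across A17/+ 1 to 4 it was at 209.6, 259.8, 147 and 171 CPM, within the WT range, with a log2 fold change of -0.18 (edgeR adjusted p = 0.744).

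**Figure D2:**
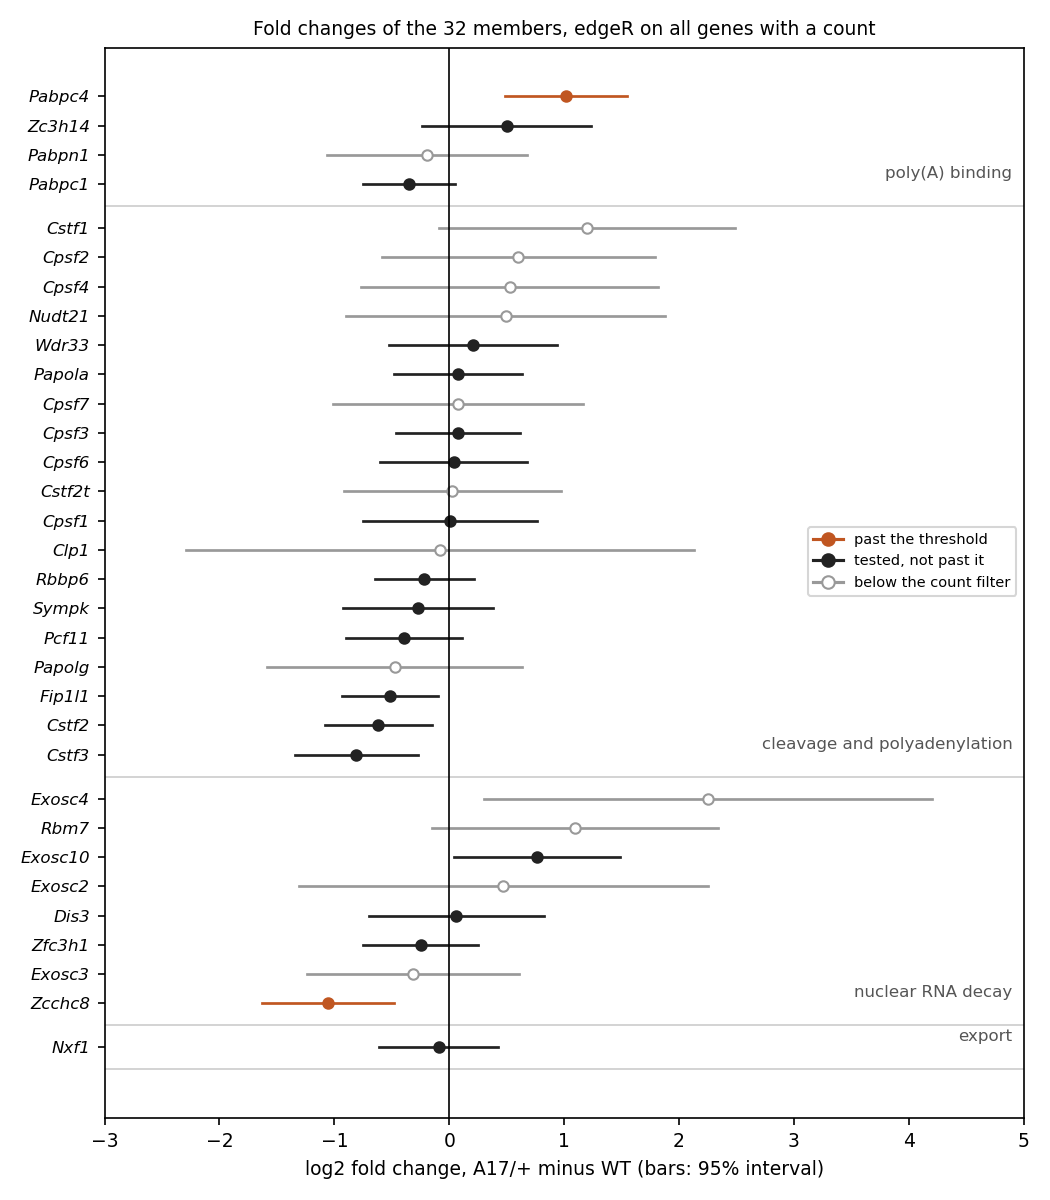
Log2 fold change of all 32 members (A17/+ minus WT) from the edgeR fit on all genes with a count, grouped by class, with 95% intervals as bars. Pabpc4 and Zcchc8 are coloured as past the threshold, open points are the 13 members below the count filter, and Exosc4 and Clp1 have wide intervals because they rest on few counts.

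Among the 8 genes of nuclear RNA decay, 4 had enough counts and 1 of those, Zcchc8, was called. Zcchc8 lies at chr5:123698294-123721100 (mm10, minus strand), and no other gene's exons overlap it in the annotation used. It was at 86.9, 74.3, 112 and 152 CPM across WT 1 to 4 and at 46.8, 56.5, 53.7 and 48.5 CPM across A17/+ 1 to 4, from 23 to 39 and 17 to 21 counts. Every A17/+ library lay below every WT library. The A17/+ values were close together, but 17 to 21 counts each leave the spread between mice poorly measured. Means were 106 ± 34.1 CPM in WT against 51.4 ± 4.50 CPM in A17/+ (SD, n = 4 each). Its level fell by 1.00 on the log2 scale (SE 0.26, 95% interval -1.56 to -0.45), with an edgeR adjusted p of 0.0228. The call ended on leaving out WT 3, WT 4, A17/+ 3 or A17/+ 4 (log2 fold change -1.03 to -0.86, adjusted p 0.0571 to 0.0686) and under limma-voom (-0.94, adjusted p = 0.0505). Over 19 alternatives the fold change stayed between -1.18 and -0.86 and the adjusted p between 0.0103 and 0.0686.

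Rbm7, the RNA-binding partner of Zcchc8 in NEXT, had 4, 2, 1 and 2 counts across WT 1 to 4 and 8, 5, 10 and 2 across A17/+ 1 to 4. These 9 and 25 counts gave a ratio of 2.28 with a counting interval of 1.03 to 5.55, opposite in sign to Zcchc8. The edgeR adjusted p was 0.482 in the fit on all genes, so no difference between the genotypes was shown for Rbm7.

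Zfc3h1, the large zinc finger protein that connects PABPN1-bound RNA to the exosome, was at 105, 84.0, 183 and 130.0 CPM across WT 1 to 4. Across A17/+ 1 to 4 it was at 123, 110.1, 113 and 85.5 CPM, inside the WT range. The log2 fold change was -0.20 ± 0.25 (SE, edgeR adjusted p = 0.671). Set against Zfc3h1 within each library, a ratio chosen after the values were seen, Zcchc8 had 83.0, 88.5, 61.1 and 117 counts per 100 across WT 1 to 4 and 38.2, 51.3, 47.5 and 56.7 across A17/+ 1 to 4. The groups were apart, at 87.3 ± 22.9 in WT and 48.4 ± 7.79 in A17/+ (SD, n = 4 each). This ratio takes in Zcchc8 alone. With Rbm7 added, the NEXT genes summed to 95.8, 80.8, 115 and 163 CPM across WT 1 to 4 and 64.7, 70.6, 81.9 and 54.2 CPM across A17/+ 1 to 4, where A17/+ 3 lay above WT 2.

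Exosc10, a nuclear 3′ exonuclease of the exosome, was at 26.7, 25.9, 10.2 and 59.6 CPM across WT 1 to 4 and 58.0, 70.6, 28.3 and 42.8 CPM across A17/+ 1 to 4. WT 4 lay among the A17/+ values and above A17/+ 1, 3 and 4. The log2 fold change was 0.83 ± 0.41 (SE, edgeR adjusted p = 0.220), and it stayed positive and short of the threshold in all 18 alternatives that tested it. Dis3, the other nuclease, was at 29.6 ± 9.54 CPM in WT against 33.1 ± 9.05 CPM in A17/+ (edgeR adjusted p = 0.875). Exosc2 and Exosc3, of the cap that RNA passes through, were below the filter, at 5 and 9 counts for Exosc2 and at 24.3 ± 12.4 and 19.5 ± 5.48 CPM for Exosc3. Exosc4, of the barrel, had 1, 1, 0 and 0 counts across WT 1 to 4 and 2, 6, 3 and 3 across A17/+ 1 to 4. All A17/+ libraries were above all WT libraries, but 2 against 14 counts gave a ratio of 5.75 with a counting interval of 1.32 to 52.1, and the edgeR adjusted p was 0.247 in the fit on all genes.

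Nxf1, which carries finished mRNA through the nuclear pore, was at 116, 97.0, 88.0 and 108 CPM across WT 1 to 4 and 98.1, 70.6, 136 and 94.1 CPM across A17/+ 1 to 4. The WT range lay inside that of A17/+, and the log2 fold change was -0.04 ± 0.24 (SE, edgeR adjusted p = 0.935).

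Side by side, none of the 3 classes separated the genotypes by its summed level. Their median log2 fold changes over all members, from the fit on all genes with a count, were 0.15 for poly(A) binding (4 genes), 0.03 for cleavage and polyadenylation (19 genes) and 0.26 for nuclear RNA decay (8 genes), against 0.15 over all 19857 genes. With 1 library left out these medians ran from -0.04 (without WT 3) to 0.35 (without WT 1), from -0.12 (without A17/+ 1) to 0.07 (without A17/+ 3) and from -0.0015 (without WT 4) to 0.38 (without A17/+ 4), so the sign of each rested on single libraries. Over all 32 members the median was 0.03, with 18 positive and 14 negative, beside 11083 positive and 8774 negative over all 19857 genes. Summed levels of the poly(A) binding class were 472, 459, 433 and 374 CPM across WT 1 to 4 and 359, 652, 475 and 399 CPM across A17/+ 1 to 4. The cleavage and polyadenylation class summed to 1061, 1393, 1404 and 1587 CPM in WT and 1199, 1259.6, 1019.9 and 1109 CPM in A17/+, and nuclear RNA decay to 281, 242, 396 and 396 CPM in WT and 314, 339, 274 and 248 CPM in A17/+. In each class the libraries of the groups overlapped, and the difference between classes was not tested. The members that passed the test moved in opposite directions within different classes, while each class also held members with fold changes of the other sign.

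**Figure D3:**
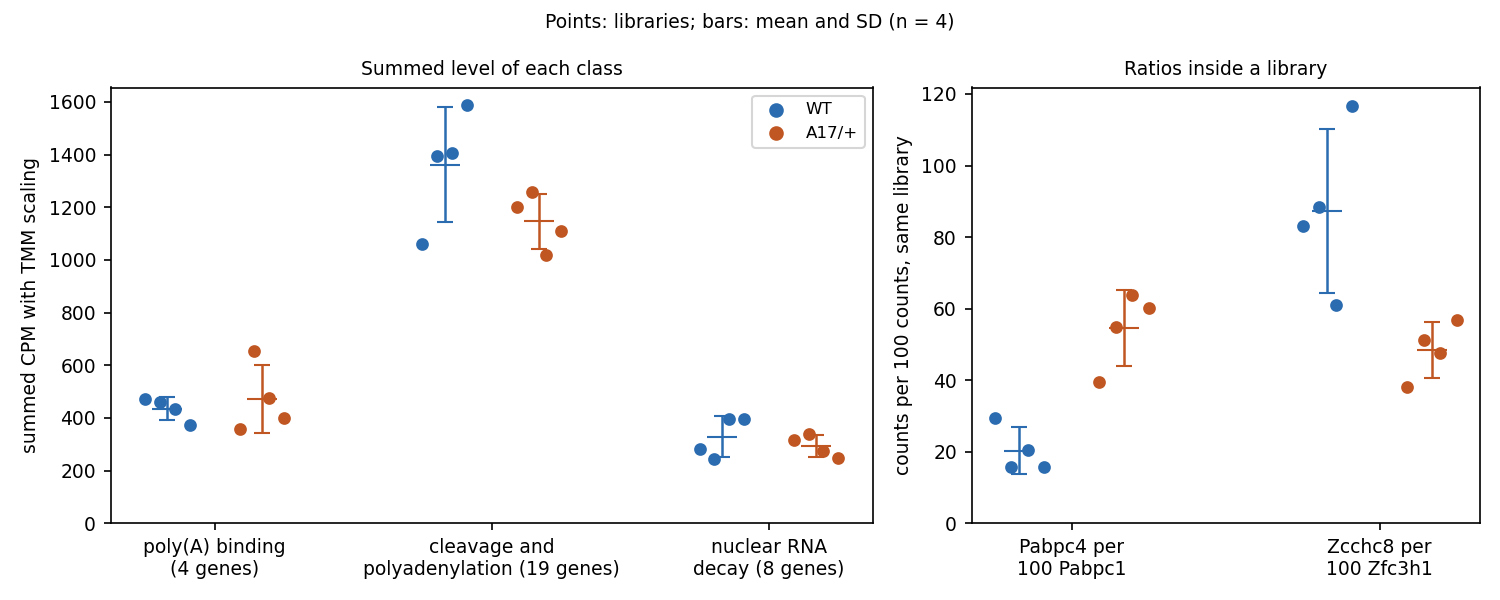
Left, summed CPM of the 3 classes in each library, with mean and SD (n = 4) as bars, WT in blue and A17/+ in orange, on a linear axis from 0. Right, counts of Pabpc4 per 100 Pabpc1 and of Zcchc8 per 100 Zfc3h1 in the same library. The class sums overlap between the genotypes. Both ratios (20.3 against 54.6 and 87.3 against 48.4 on average) do not, but they were chosen after the values were seen. Each ratio also holds a gene already past the threshold, and how often ratios of other gene pairs are apart was not tested.

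**Figure D4:**
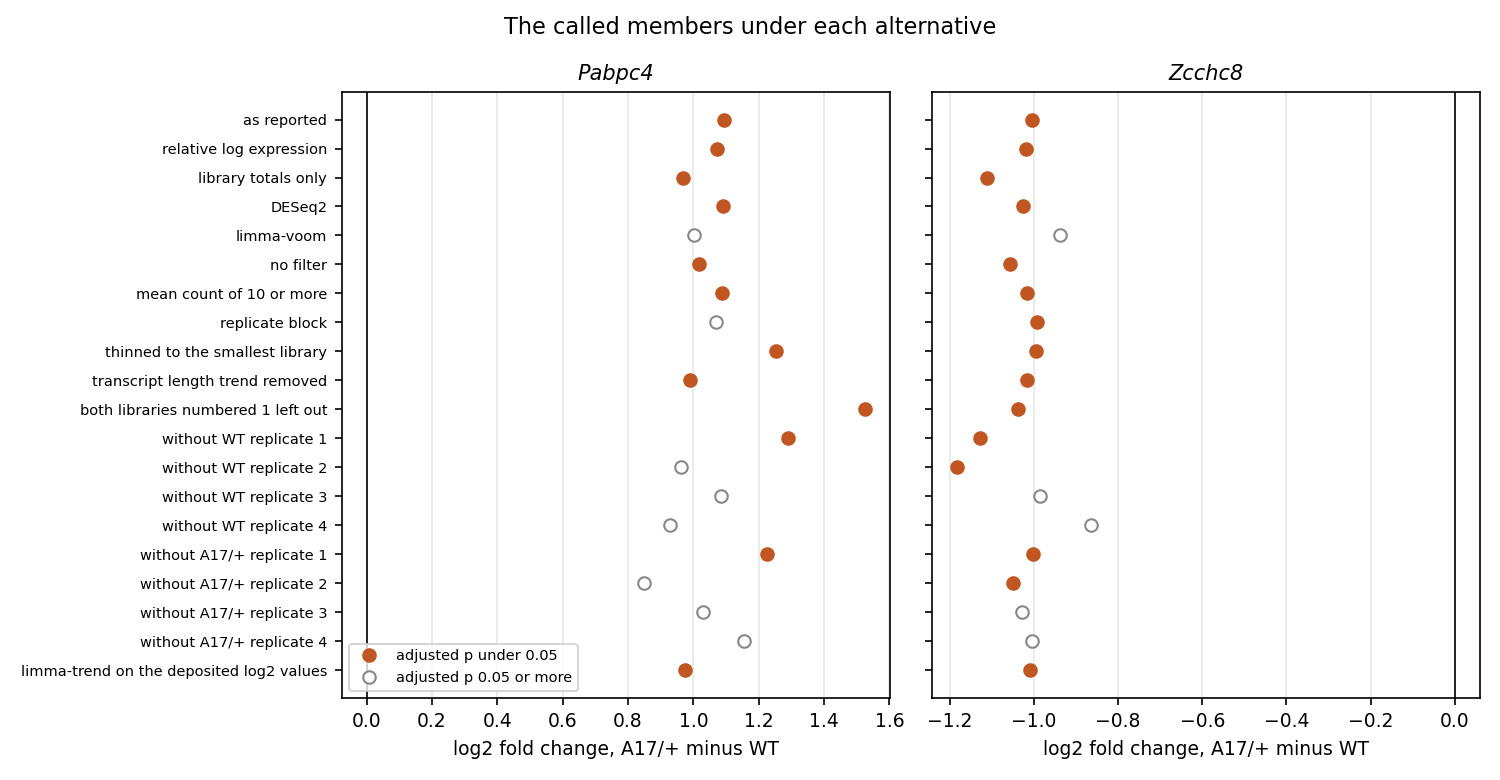
Log2 fold change (A17/+ minus WT) of Pabpc4 and Zcchc8 as reported and under 19 alternatives, filled where the adjusted p was under 0.05. All Pabpc4 values lie between 0.85 and 1.52 and all Zcchc8 values between -1.18 and -0.86, while the threshold was missed under 8 alternatives for Pabpc4 and 5 for Zcchc8.

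Other genes of these pathways were taken from a list of 51, which holds further exosome subunits, adaptors, deadenylases, poly(A) binding protein regulators and export factors. Of these 29 had enough counts, 1 was called higher and none lower, and 5 had an unadjusted p under 0.05 by edgeR, beside 8.94% called and 25.1% with such a p over all genes tested. Paip2, which binds cytoplasmic poly(A) binding proteins and represses their action in translation, was the gene called. It was at 69.1, 51.7, 47.4 and 48.8 CPM across WT 1 to 4 and 89.2, 113, 98.9 and 103 CPM across A17/+ 1 to 4, with every A17/+ library above every WT library. Of the 29 tested, 3 had groups apart with A17/+ higher, Paip2 among them, and 1 with A17/+ lower. Over all genes tested these shares were 8.57% and 6.08%. The log2 fold change of Paip2 was 0.86 ± 0.23 (SE, edgeR adjusted p = 0.0290), and in the fit on all genes with a count the adjusted p was 0.109. That fit called 1 other gene of the list instead, Thoc5, a subunit of the THO complex that couples transcription to export, as lower (log2 fold change -1.21, edgeR adjusted p = 0.0229, against -1.16 and 0.0616 among the filtered genes). Thoc5 was at 54.6 ± 27.2 CPM in WT and 25.4 ± 9.50 CPM in A17/+, with overlapping groups, and is named here after its values were seen. Mtrex, the helicase shared by both exosome adaptors, was at 67.9 ± 20.9 CPM in WT against 59.1 ± 10.9 CPM in A17/+ (SD, n = 4 each, edgeR adjusted p = 0.710).

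A list of 30 small nucleolar RNA host genes and nuclear noncoding RNAs was also described. Whether nuclear decay acts on each of them was not tested. Of the 30, 24 were in the count table and 8 had enough counts. By edgeR none of the 8 was called and 1 had an unadjusted p under 0.05. Over all genes tested 8.94% were called and 25.1% had such a p. Malat1 and Neat1, nuclear RNAs with the highest counts of the list, had log2 fold changes of -0.04 (adjusted p = 0.937) and -0.26 (adjusted p = 0.301). Snhg9, a host gene named after its values were seen, had 0 counts in all 4 WT libraries and 1, 10, 6 and 7 counts across A17/+ 1 to 4. Set against a floor of 3 counts over the WT group, its A17/+ level was 6.57-fold higher, without the error of the A17/+ counts. The counting interval of the ratio, which takes in that error, had a lower limit of 4.94. The edgeR adjusted p of Snhg9 was 0.000497 in the fit on all genes with a count. That fit called 1 of the 24, Snhg9, beside 4.3% of all genes. Of the 24 log2 fold changes there, 17 were positive and 7 negative, beside 11083 positive and 8774 negative over all 19857 genes. Of the 24 genes, 16 were below the count filter.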

How the data were processed

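The 8 tongue libraries were made with mcSCRB-seq, a method that barcodes 3′ ends and counts molecules by UMI. The authors deposited raw UMI counts per Ensembl gene, and for each library log2 values of 10709 genes, log2 CPM by their values. Per the submitters' processing notes, cutadapt 2.10, STAR 2.7.5a, UMI-tools 1.1.1, HTSeq and the build mm10 were used. Symbols, positions and transcripts were taken from the GENCODE annotation of mm10, which named 19675 of 19857 genes.

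Counts were filtered with filterByExpr (minimum count 10, minimum total 15; 5066 genes kept), scaled by TMM and fitted with edgeR 4.0.16 (robust quasi-likelihood, genotype only, R 4.3.3), with Benjamini-Hochberg adjustment over all genes tested. A fit on all genes with a count gave values for the members below the filter. Log2 fold changes are A17/+ minus WT. Pabpn1 was tested by exact permutation. Tested on simulated data for this comparison with 5066 genes, the fit recovered 39% of 100 genes changed 2-fold and 98% of 100 changed 4-fold, so a 2-fold change was often missed at this depth. Counting intervals (95%) and floors cover counting error only.

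Alternatives were relative log expression, library totals, DESeq2 1.42.0, limma-voom (limma 3.58.1), other filters, a replicate block, thinning to 205696 counts, removal of a transcript length trend, leaving out libraries and, added after seeing the data, limma-trend on the deposited log2 values. The members, lists and tests were chosen with earlier results of these data known. Members named with all values are Pabpn1, those past the threshold, the 3 of each class with the highest mean CPM, Nxf1, Nudt21, Cpsf6 and Cstf2. Of each other list up to 4 genes past the threshold were named, or the 2 with the highest mean level. Further genes, with Pcf11, Mtrex, Rbm7, Exosc4, Cstf1, Cstf3 and Snhg9 among them, were given values after these were seen.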

Additional observations from a re-analysis of the deposited data

Results flagged for a closer look

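In 3 of 70 sets of 4 libraries, 1 library stood apart from the other 3 by more than Dixon's 95% critical value for 4 samples, and chance gives about 1 in 20. Zc3h14 was at 57.0 CPM in A17/+ 4, against 36.7 to 40.1 CPM in the other A17/+ libraries. Papolg was at 2.82 CPM, a single count, in A17/+ 2, against 14.1 to 15.6 CPM in the others. Nudt21 was at 8.47 CPM in A17/+ 2, which is 3 counts, against 11.1 to 11.4 CPM, which are 4 and 5 counts.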

How the results depend on the processing

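Between 455 and 884 counts over 32 genes per library limit every value, and 13 members could not be tested at the depth of the filter. All genes called numbered 453 as reported (321 higher, 132 lower), 233 under limma-voom, 853 with no filter, 1025 without both libraries numbered 1, 808 under limma-trend, and 210 to 890 with each library left out in turn. The split was 279 higher to 289 lower with library totals only, which moved the median log2 fold change of tested genes to -0.11, and 253 to 252 with the length trend removed. Members called numbered 2 as reported, 0 under limma-voom, 4 without both libraries numbered 1, and 0 to 4 with each library left out. Replicate numbers did not pair the libraries (same-number correlations of 0.00, 0.07, -0.10 and -0.16, and 0 of 4 best with its own number). With the replicate number as a block 410 genes and 1 member, Zcchc8, were called, since Pabpc4 missed the threshold (1.07, adjusted p = 0.0552). The Pabpn1 difference in mean log2 level turned to 0.13 without both libraries numbered 1 and ran from -0.35 to 0.12 with each library left out (0.09 without WT 1, 0.07 without WT 4, 0.12 without A17/+ 3). Over all genes tested the median log2 fold change was 0.006 with filterByExpr and 0.0028 with a mean count of 10 or more. The median log2 fold change of poly(A) binding was 0.55 over the members that passed either filter. That of cleavage and polyadenylation was -0.19 with a mean count of 10 or more. That of nuclear RNA decay was -0.045 with filterByExpr, -0.053 with a mean count of 10 or more, 0.18 with the length trend removed, 0.055 without both libraries numbered 1, 0.079 under limma-trend, and -0.0015 to 0.38 with each library left out. The cause of these shifts was not tested, except that the filters leave out members.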
